A study of Danio rerio with 4 samples.

Results

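The 100 kb windows of the zebrafish genome most crowded with Gfi1aa ChIP-seq summits are described here. Summits on chromosomes 1 to 25 were counted in fixed windows of 100 kb that started at position 1, and windows with 50 or more were kept. This gave 50 windows of 13458, 0.372% of all windows up to the last summit of each chromosome. They held 2826 summits. The members are the 2306 of these that belong to peak regions with fewer than 10 summits. They make up 1.43% of the 161735 chromosomal summits and come from a list of 163838 in all. The other 520 summits in the windows belong to 35 longer chains and are counted apart.

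Whole embryos at 15 hours post fertilisation (hpf) were cross-linked, and their chromatin was sheared to between 200 and 700 bp. It was precipitated with an antibody against GFP in 2 libraries (Gfi1aa ChIP), and 2 further libraries were input without antibody. No genotype, strain or GFP construct is named in the labels, and the samples include no anti-GFP library of GFP-free embryos, so antibody background cannot be told apart from Gfi1aa binding. One list of summits covers the whole series on the GRCz11 assembly, so no window has a value per library, a replicate error or an input level beside it, and the read depth is unknown.

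Gfi1aa belongs to the Gfi1 family of zinc finger repressors. In mammals these proteins recruit the histone demethylase Lsd1 through a short domain at their start and silence genes that blood precursors switch off as they mature. In the zebrafish embryo gfi1aa is known for its part in the first wave of blood cells, which forms in the mesoderm around the stage sampled here. A summit is the position at which the enrichment of a peak is highest, and one peak region can carry several, marked in the list by letters.

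The members were chosen by measured values, the number of summits per window and per region, and the scores come from the same enrichment. All values below are therefore descriptions without a test. Genes, repeats and base sequence of the windows were not analysed here, since no GRCz11 sequence or annotation was used.

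The crowded windows lay at the far end of a continuous distribution. They held 50 to 74 summits, with a median of 55, while the median over all windows was 10 and the upper quartile 17. No gap set them apart: 8 windows held 49 summits and 9 held 50. Those with 49 had 17 to 28 regions and median scores of 6.73 to 22.3, and those with 50 had 8 to 32 regions and median scores of 7.93 to 17.9, so the values just inside and just outside the limit overlapped. The edges of the grid matter as well: with windows shifted by 50 kb, 43 were crowded, and 23 of the 50 overlapped one of them. The score is the peak caller's −log10 value for a summit, read as −log10 of a q-value.

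**Figure D1:**
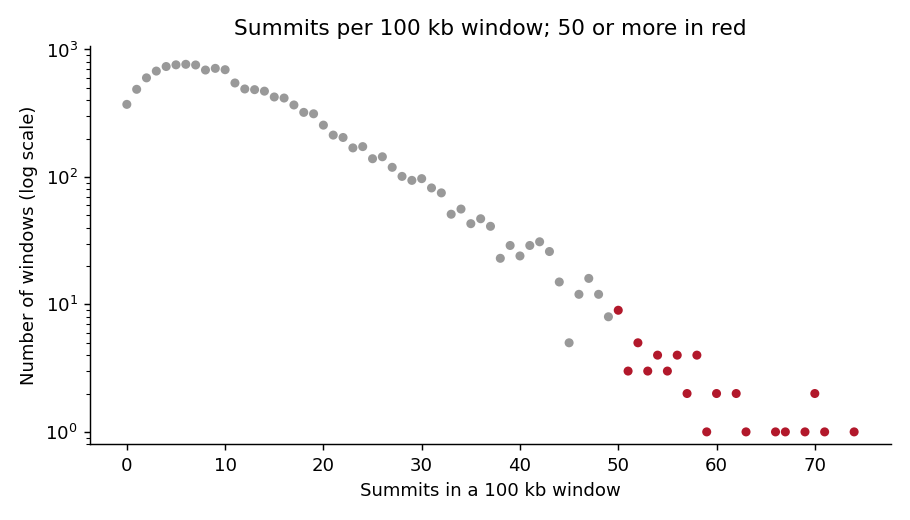
Number of 100 kb windows (log scale) against the summits they hold, over 13458 windows of chromosomes 1 to 25. Each point is 1 count value; red points are windows with 50 or more summits, which continue the slope of the grey ones up to 74.

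The fullest window lay on chromosome 3 from 23700001 to 23800000 and held 74 summits in 20 regions. Its summits were also strong for a crowded window, with a median member score of 17.1 and 22 of 49 members (44.9%) at 20 or more. Next came chromosome 16 from 7700001 to 7800000, with 71 summits in 28 regions. Its members were weak, with a median of 5.95 and 4 of 57 (7.02%) at 20 or more. Such scores were found for 25.1% of all members and 21.1% of all chromosomal summits. The first and second windows therefore had similar counts and different scores.

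The next windows both held 70 summits. That on chromosome 14 from 24300001 to 24400000 had a median member score of 5.65, and that on chromosome 16 from 29500001 to 29600000 had one of 9.22. The window on chromosome 21 from 43100001 to 43200000 followed with 69 summits in 17 regions, a mean of 4.06 summits per region. Its first summit lay only at 43128703, so the crowded stretch filled the window from there on. Both of its neighbouring windows were sparse, with 7 and 5 summits.

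On chromosome 11 from 21900001 to 22000000 stood 67 summits in 31 regions, and every one was a member, the highest number of members in any of the 50 windows. The reverse case was chromosome 15 from 20900001 to 21000000. Of its 66 summits 51 belonged to 2 long chains, and 15 were members with a median score of 7.56. The last of the 10 fullest windows were chromosome 3 from 13600001 to 13700000 (63 summits), chromosome 1 from 50700001 to 50800000 (62) and chromosome 20 from 14700001 to 14800000 (62). Their median member scores were 6.25, 6.18 and 9.72.

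Windows became crowded in more than one way. Long chains were present in 28 of the 50 windows and absent from 22. Counting members alone, 26 windows still reached 50. In 4 windows under 30 summits were members, the lowest being 11 of 50 on chromosome 1 from 45500001 to 45600000, where the largest region counted 60 summits in all, some of them past the window's edge. Of all summits in crowded windows 18.4% lay in chains of 10 or more, against 1.35% in the other windows. This share increased in steps with the count of a window, with 4.13% in windows with 30 to 39 summits and 9.97% with 40 to 49. Both the contrast and the steps follow in part from the rule, since 1 long chain can add 10 or more summits to a count.

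Crowding came with both more regions and more summits per region. Crowded windows held 8 to 32 regions, with a median of 23.5, against a median of 7 in other windows with a summit and of 16 in those with 20 to 49 summits. Summits per region had a median of 2.35 over the crowded windows, against 1.65 in windows with 20 to 49 summits and 1.33 in all others with a summit. A count of 50 or more asks for many regions, many summits per region or both. These contrasts thus follow in part from the rule. Many regions alone did not make a window crowded. Of 127 windows with at least 24 regions, 25 were crowded, and of 18 with 28 or more regions, 9 were. When windows were ranked by regions in place of summits, 13 of the 50 were among the first 50.

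**Figure D2:**
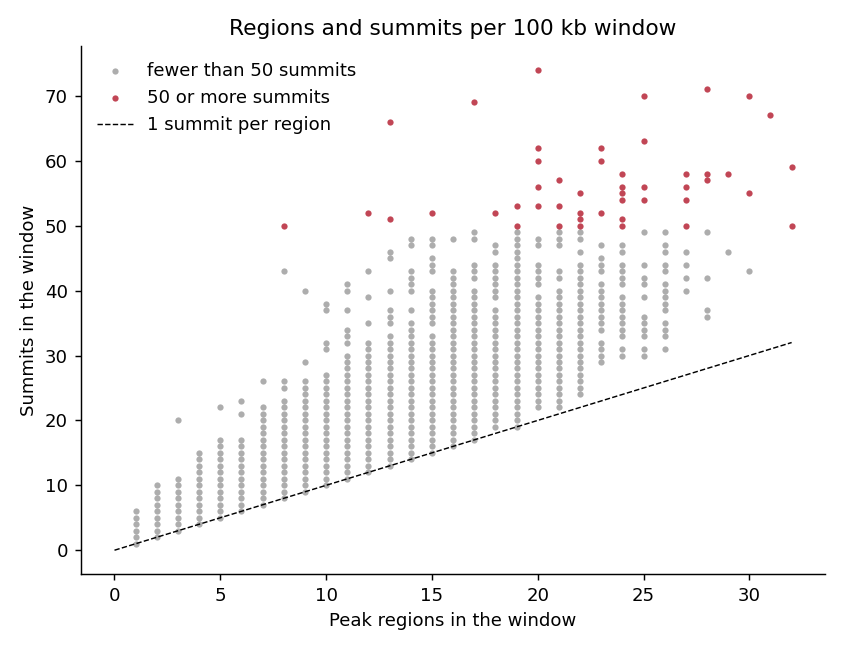
Summits against peak regions in each 100 kb window; a point can stand for several windows, and the dashed line marks 1 summit per region. Red points are the 50 crowded windows, spread from 8 to 32 regions, with grey windows of as many regions below nearly all of them.

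A smaller share of members than of summits elsewhere stood alone in their region. Single-summit regions held 572 members (24.8%), against 50.03% of summits outside the crowded windows once chains of 10 or more were left out there too. The share was graded: over all summits, chains included, it was 34.9% in windows with 30 to 39 summits, 26.4% with 40 to 49 and 20.2% in the crowded windows. A lower share in fuller windows follows in part from counting summits, since a region with several summits adds more to a count. Regions of 2 to 4 summits held 1151 members and regions of 5 to 9 held 583. Within regions of 2 to 9 summits, the mean step from one summit to the next had a median of 605 bp, against 562 bp in such regions elsewhere. The spacing inside regions was thus much the same, while neighbouring regions stood closer. The gap from the last summit of one region to the first of the next had a median of 2174 bp inside crowded windows and 5412 bp elsewhere. Short gaps follow in part from the rule, which asks for many summits in 100 kb.

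Summits were spread over the whole of most crowded windows. Of the 500 stretches of 10 kb in them, 35 (7.0%) held no summit, and 28 windows had none empty. Over all windows 50.04% of such stretches were empty. Fewer empty stretches follow from the rule, since the crowded windows held a mean of 56.5 summits and all windows 12.02. The busiest 10 kb of a window held 9 to 16 summits, a median of 20.3% of its total. The longest stretch without a summit ranged from 5.71 kb on chromosome 16 from 29500001 to 32.9 kb on chromosome 20 from 31200001, with a median of 13.2 kb. That last window had 4 of its 10 stretches empty, the most of any.

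The excess fell quickly at the edges. The mean over the 50 windows was 4.0 to 6.66 summits per 10 kb inside, 2.8 to 2.92 in the first 10 kb outside, and 1.31 to 1.96 from 50 to 100 kb outside, against 1.202 over all windows. The profile peaked near the centre and was lowest at the inner edges, 4.0 and 4.64. This shape follows in part from the rule, which chose windows by the summits between fixed edges. It does not show where a crowded stretch begins or ends.

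The windows on either side were fuller than the typical window, and 2 of the 99 were crowded themselves, against 0.372% of all windows. These 2 are a touching pair on chromosome 23, each the flank of the other. Of 99 flanking windows, 84 held more than the genome-wide median of 10 summits and 15 held 10 or fewer. Their median was 17, with a range of 1 to 58. Flanks with 20 or more summits were 45 of 99 (45.5%), against 17.7% of all windows. Both flanks were above the median in 37 of the 50 windows, and both at or below it in 3. At 200 kb the medians were 12 and 13, and at 1 Mb they were 13 and 10. Full flanks were not particular to crowded windows: beside windows with 40 to 49 summits the median flank held 18, beside those with 30 to 39 it held 17, and beside those with 1 to 4 it held 6.

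**Figure D3:**
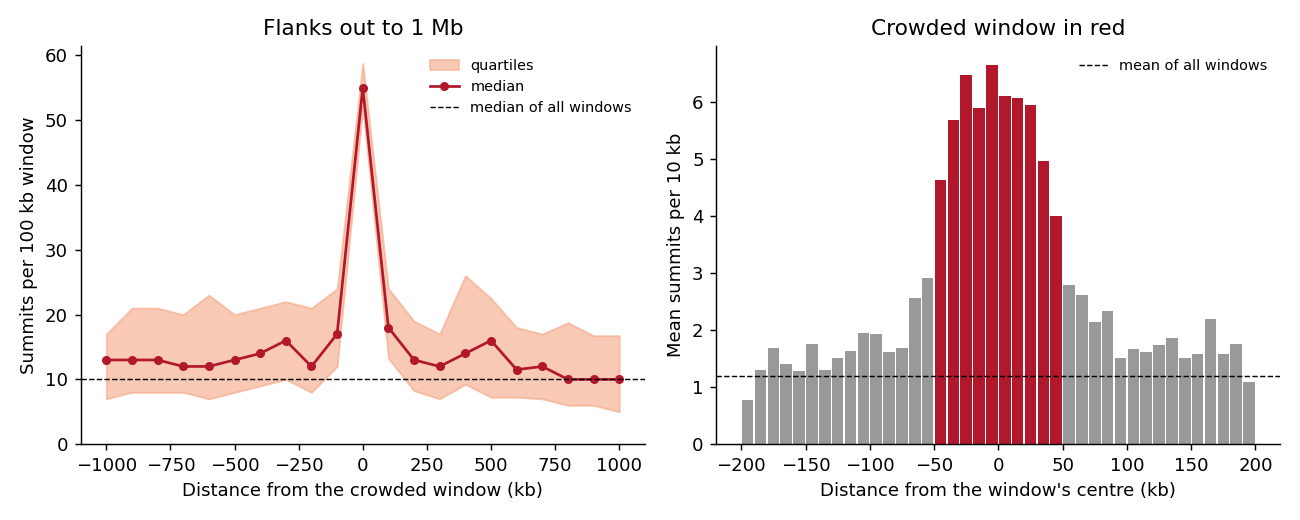
Left, summits per 100 kb window from 1 Mb before to 1 Mb after the 50 crowded windows (points, median; band, quartiles; dashed line, median of all windows, 10). Right, mean summits per 10 kb around the centres of the crowded windows (red, inside), with the mean of all windows, 1.202, as a dashed line; the red bars reach 6.66 and the first grey bars beside them lie at 2.8 and 2.92.

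Of the 50 windows 2 touched each other, forming 1 stretch on chromosome 23 from 36000001 to 36200000. It held 108 summits in 60 regions, and all 108 were members. Their scores ran from 1.33 to 145, with a median of 9.55. Of the 108, 36 reached 20 or more, as did 25.1% of all members and 21.1% of all chromosomal summits. The windows before and after this stretch held 27 and 16 summits. Including this pair, 6 windows lay within 1000 kb of another crowded one. The other pairs were on chromosome 21, from 22800001 and from 23200001 with 300 kb between them, and on chromosome 20, from 30700001 and from 31200001 with 400 kb between them.

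Crowded windows occurred on 21 of 25 chromosomes. Chromosome 23 had 5 in 463 windows, and chromosomes 4 and 20 had 4 each in 781 and 552 windows. Chromosomes 6, 10, 12 and 22 had none, although their fullest windows held 44, 46, 49 and 48 summits and came close to the limit. Within 5 Mb of a chromosome's start or last summit lay 5 of the 50 windows, and 2525 of all 13458. One of the 5 was the very first window of chromosome 14, from 1 to 100000, with 51 summits and a median score of 12.8.

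Member scores had a slightly higher median than scores elsewhere. They ran from 1.31 to 877, and scores in other windows from 1.302 to 55147. The highest values are not comparable, since 2306 members stand beside 158909 summits in other windows. The members' median was 8.39, with quartiles of 4.09 and 20.1. The order-statistic (binomial) 95% interval of the median was 7.82 to 8.93, which takes summits as independent and is too narrow for summits that share regions and windows. Summits outside the crowded windows had a median of 7.27 with quartiles of 3.74 and 16.97. In the uncrowded flanking windows the median was 7.32. The summits of long chains in the crowded windows stood higher, at 15.5. This was not particular to crowded windows. With their summits past a window's edge included, these chains had a median of 16.2, and chains of 10 or more elsewhere also had 16.2.

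Weak summits made up a large part of the members, though a slightly smaller part than of all chromosomal summits. Scores under 5 were found for 737 members (32.0%), against a background of 35.3% of all chromosomal summits. Scores of 20 or more were found for 578 (25.1%, background 21.1%), and scores of 100 or more for 41 (1.78%, background 2.02%). The very strong summits were thus no larger a share of the members than of all chromosomal summits, which include long chains. Of the 520 long-chain summits in the crowded windows, left out of the members, 19 (3.65%) scored 100 or more. Members had a modestly smaller share under 5 and a modestly larger share at 20 or more. With summits scoring under 5 left out of the counts, 5 windows still reached 50. Counts fell in all windows while the limit stayed the same. When windows were ranked by summits scoring 5 or more, 34 of the 50 were among the first 50.

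**Figure D4:**
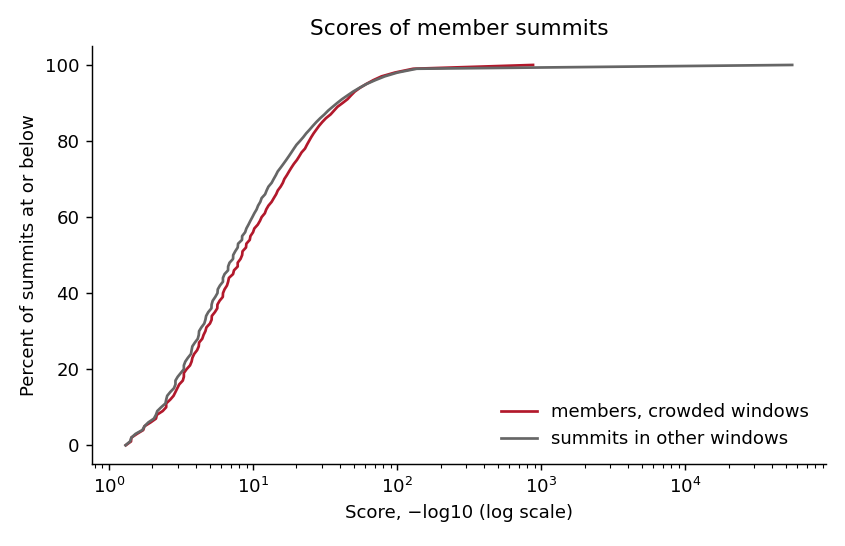
Percent of summits at or below each score (log scale), for the 2306 members (red) and the 158909 summits of other windows (grey). The red curve lies slightly to the right, with medians of 8.39 and 7.27, up to the 94th percentile; from the 95th (61.1 and 61.3) to the 98th (96.5 and 100.4) it lies slightly to the left.

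Scores were higher in fuller windows up to 30 summits per window and level beyond. Over summits from regions of fewer than 10, the median was 6.18 in windows with 1 to 4 summits, 6.33 with 5 to 9, 7.21 with 10 to 19 and 7.83 with 20 to 29. It was 8.39 with 30 to 39, with 40 to 49 and with 50 or more. This value is one of the list's 20 most frequent scores, so many summits share it. By this measure the crowded windows did not stand apart from windows with 30 to 49 summits.

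Set beside regions with as many summits elsewhere, regions in crowded windows showed no uniform shift in strength. Counting regions with at least 1 summit in a crowded window, the median of the strongest summit was 6.18 for the 572 regions with 1 summit, against 6.59 elsewhere. It was 13.4 against 12.02 with 2 summits, 19.97 against 19.1 with 3, and 31.8 against 28.9 with 4. For regions of 5 to 9 summits it was 35.4 against 46.9, and for chains of 10 or more, which hold no members, 73.4 against 83.1. Regions with 1 summit and with 5 or more were thus lower in crowded windows, and those of 2 to 4 were higher.

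Crowded windows differed from each other in score. The median member score of a window ranged from 3.74 to 18.4, with quartiles of 7.59 and 10.06. It was above the median of all chromosomal summits, 7.29, in 38 of 50 windows. Most windows with 20 to 49 summits were above it too: their median scores, over all summits, had a median of 8.25. The highest median member score was on chromosome 9 from 1900001 to 2000000. All 51 summits there were members, 23 of them at 20 or more and the strongest at 99.1. The lowest was on chromosome 20 from 33800001 to 33900000, where all 57 were members, 6 of them at 20 or more and the strongest at 68.7. Numbers of summits in these windows were close, 51 and 57, with 24 and 28 regions. Within the narrow range of 50 to 74 summits, the count of a window said little of its scores. Over the 50 windows Spearman's rho of summits and median member score was -0.19, given as a description. Over all 13087 windows with a summit, rho of summits and median score of all summits was 0.17.

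**Figure D5:**
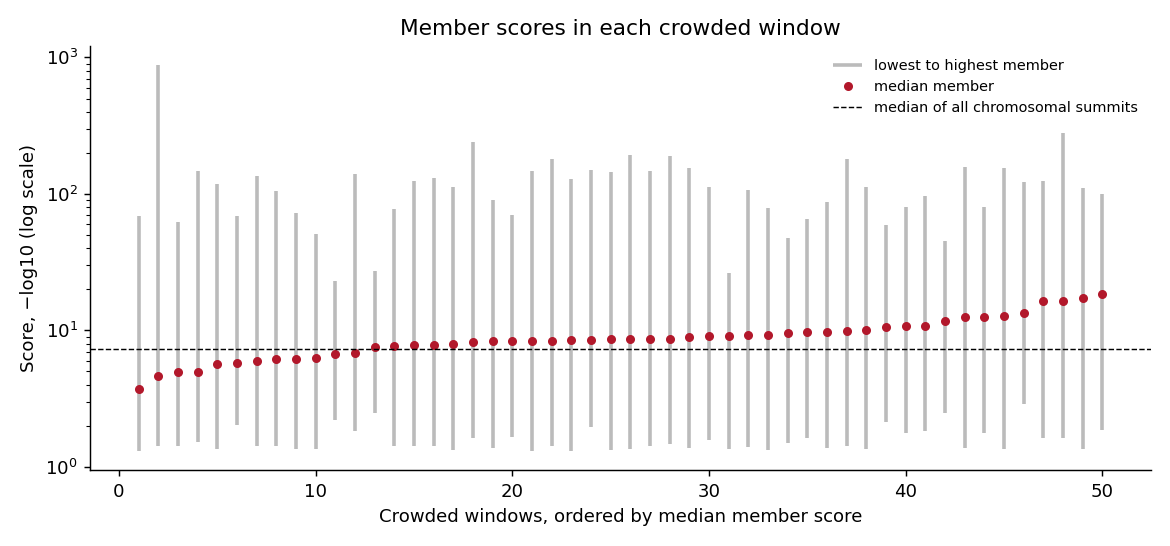
Member scores (log scale) in each of the 50 crowded windows, ordered by the median member (red points); grey lines run from the lowest to the highest member, and the dashed line is the median of all chromosomal summits. Medians run from 3.74 to 18.4, and 1 line near the left end reaches 877, in a window on chromosome 4.

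A member scoring 100 or more was present in 29 of the 50 windows. With the long chains counted too, 68% of the windows had a summit that strong, against 57.3% of windows with 40 to 49 summits and 50.2% of those with 30 to 39. A window with more summits has more chances to hold one. The strongest summit of the window was a member in 40 and part of a long chain in 10. The 5 strongest members lay at position 42877104 on chromosome 4 (877), at 42832125 on the same chromosome (812), at 19659197 on chromosome 5 (278), at 19776165 on chromosome 19 (239) and at 43838797 on chromosome 17 (192). The chromosome 5 summit was 1 of 8 in its region, the chromosome 19 summit 1 of 4, and the chromosome 17 summit 1 of 2. Among all chromosomal summits the first and second ranked 16 and 18, and the others ranked 148, 294 and 613. The leading pair thus lay in a single window, and the third strongest member scored far lower.

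The window that held the first and second of these, on chromosome 4 from 42800001 to 42900000, was the 1 crowded window in the sparse part of the chromosome beyond 30 Mb, where the median window held 3 summits and the next fullest 44, and its own neighbours held 1 and 3. Its 55 summits, in 24 regions, were all members. The strong summits at 42832125 and 42877104 stood 44.98 kb apart and enclosed 50 others, and 3 lay outside them. Apart from this pair, scores ran from 1.43 to 9.58, with a median of 4.67, so no summit had an intermediate score.

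Summit positions in this window showed a period. The best one, 250 bp, was shorter than the typical step between neighbours. From one strong summit to the other, that step had a median of 560 bp. For each of the 2383 windows with 20 or more summits, every period from 200 to 2000 bp was tried, a search chosen after the values of this window were seen. The concentration of positions at one phase of the best period runs from 0, for positions spread evenly over the period, to 1, for positions that all share 1 phase. It was multiplied by the square root of the number of summits. This measure was 5.79 here, at a period of 250 bp, against a median of 2.5 and a highest value of 3.73 in the other 2382 windows. That highest value was on chromosome 13 from 50400001 to 50500000, also a crowded window, at a period of 470 bp. The measure cannot exceed the square root of the number of summits. The 1611 windows with 20 to 29 summits, most of those searched, therefore could not have reached 5.79 with any positions. The other 49 crowded windows could have, and their median was 2.53.

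At the 250 bp period, 41 of the 55 summits (74.5%) lay within 25 bp of their shared phase. The exact Clopper-Pearson 95% interval was 61.0% to 85.3%, for counting error only. It takes summits as independent, although many share a region. Even spread would put 20.4% within 25 bp of the phase if the phase were fixed beforehand. The phase was fitted to the same positions, so the share under even spread would be higher. In the other 49 crowded windows, each at its own phase, the share was 15.1% to 37.1%, with a median of 23.5%. Over all 2382 other windows searched, uncrowded ones with as few as 20 summits included, the highest share was 60%. The period was picked as the best one for this window, so the comparison favours it. Most of the 41 summits near the phase also shared 1 phase of 500 bp, such as those at 42840932, 42841945, 42844429 and 42854951. The rest, such as those at 42842193, 42857677 and 42864179, lay about 250 bp off that phase. With only the strongest summit of each region, 21 of 24 lay within 25 bp of the 250 bp phase. That phase was fitted again to these 24 summits.

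Scores in the same window were also repetitive. The 20 most frequent scores of the list, which run from 1.43 to 10.8, covered 50 of its 55 summits. Of its 53 summits scoring no more than 10.8, 94.3% had one of these values, against 38.9% of all such chromosomal summits. Over the 50 crowded windows the share of summits with such a value ran from 0% to 90.9%, with a median of 16.3%, and 5 windows had none. The part of repeated sequence, of the placement of reads and of the peak caller in the shared phase and the shared scores was not tested.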

How the data were processed

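Whole-embryo ChIP and input libraries were grouped by their titles, 2 in each. Per the submitters' processing notes, GRCz11 was the assembly and MACS2 (2.2.6), a peak caller, BWA (0.1.17), an aligner, and deepTools (3.5.1) were used. Settings, pooling of libraries and the control for calling are not stated in those notes. The authors deposited 1 summit list with −log10 scores. The lowest, 1.30158, exceeds the −log10 of 0.05 (1.30103) by little. They were read as −log10 q-values, which is an inference. Such a score rises with sequencing depth as well as with enrichment. Other per-sample columns numbered 0.

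Windows, regions, gaps, flanks and scores were computed in Python 3.11.15 with pandas 2.3.3 and numpy 2.4.6, intervals with scipy 1.17.1 and plots with matplotlib 3.10.9, and the counting and period search were tested on simulated data. Positions are 1-based. Flanks are the windows directly before and after; the first window of chromosome 14 has 1. Windows up to the last summit were counted, 371 of them empty. The windows named are the 10 fullest, the touching pair, those with the lowest and highest median member score and those of the 5 strongest members; others were named after their values were seen. The members and measures were chosen with earlier results of these data known. Alternatives were other minimum counts, a shifted grid, score and region limits, and other rankings. No gene rule could be applied.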

Additional observations from a re-analysis of the deposited data

How the results depend on the processing

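No paired analysis was possible because the list carries no values per library, and for the same reason no library could be left out. The limit of 50 and the grid decide which windows count as crowded. Under minimums of 45 and 60 and a shifted grid, median regions per window were 22 to 24, median member scores 7.82 to 8.69 and flank medians 14.5 to 18.5. A minimum of 45 summits gave 103 windows, 6 of them touching another, and a minimum of 60 gave 12, with 0 touching; the flank median of 14.5 belongs to the latter. Shifting the grid by 50 kb gave 43 windows, 0 of them touching. Of the 50 windows, 23 overlapped a crowded window of the shifted grid, and 21 of the 43 shifted windows overlapped none of the 50. Counting only summits from regions of fewer than 10 left 26 windows, and only summits scoring 5 or more left 5. Ranking by regions shared 13 of the 50 windows, with ties broken by position, whereas ranking by summits scoring 5 or more shared 34 and ranking after merging summits closer than 500 bp shared 37. The median score was 9.51 over all summits in the windows and 11.1 over the strongest member of each region. The share of summits near the 250 bp phase in the chromosome 4 window was 79.2% without its 2 strongest summits and 87.5% with 1 summit per region. The phase was fitted again for each of these shares. Leaving out chromosome 4 or the 10 windows richest in long chains, both chosen after the data were seen, gave median scores of 8.43 and 8.05. The unknown depth limits all scores.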
